A study of Homo sapiens with 5 samples.

Results

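RNA:DNA hybrids were examined at 4 neighbouring genes of 5p15.33, a band at the tip of chromosome arm 5p: TERT, CLPTM1L, SLC6A3 and SLC6A19. Their peaks were taken by gene name from the 4 deposited peak lists, which gave 28 peaks in 12 merged regions, of 80323 peaks in 58639 regions in all. The genes were chosen by their place at this locus and selected on measured values, namely that CLPTM1L and SLC6A3 hold a region called in every library, so presence in the lists is given as a description and not tested. The lists come from DRIP-seq of PC-9 cells, a long-established line from a human lung adenocarcinoma, in which the S9.6 antibody pulls sonicated DNA that carries RNA:DNA hybrids. The tested cells were 2 libraries labelled exp, taken here as the FANCI knockdown named by the design text, and they were set against 2 libraries labelled control, with 1 input library made without antibody. The labels give no agent, time or clone for the knockdown, and FANCI expression was not checked here. Nor do they state separate cultures for the libraries within a group: the p-values below rest on a spread that may be technical only.

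An R-loop forms when a transcript pairs with its template strand and leaves the other strand single, and it is favoured where the coding strand is rich in G, because G-rich RNA binds C-rich DNA tightly. TERT encodes the catalytic subunit of telomerase, which is silent in most adult tissues and reactivated in most cancers. CLPTM1L, first described as a cisplatin resistance gene, encodes a membrane protein, and common variants around TERT and CLPTM1L are known for their association with lung cancer risk. SLC6A3 encodes the dopamine transporter of neurons, and SLC6A19 encodes B0AT1, a transporter of neutral amino acids in kidney and intestine. No RNA measurement was analysed here, so whether any of these genes was transcribed in the cells is not known from these data.

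The lists held 16785 and 14354 peaks in exp 1 and exp 2 and 25281 and 23903 peaks in control 1 and control 2. A median peak held 28 and 24 DRIP reads in exp and 30 and 27 in control. The fold enrichment is the authors' value for each peak over a local background, and the reads are whole numbers counted over each library's own peaks, without scaling for depth.

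All 4 genes held peaks in all 4 libraries, which 10.9% of the 12325 genes with any peak did, and this presence was part of how the genes were chosen. The 4 genes together held 5 and 6 peaks in exp 1 and exp 2, against 9 and 8 in control 1 and control 2. The mean was 5.5 ± 0.707 peaks in exp and 8.5 ± 0.707 in control (SD, n = 2 each), a ratio of 0.647, and the ratio for all peaks of the lists was 0.633. In every library 5 regions were called, as were 3.17% of all merged regions and 2.19% of those assigned to a gene: 1 upstream of SLC6A19, 2 in TERT, 1 in CLPTM1L and 1 in SLC6A3. They hold 20 of the 28 peaks. The other 8 peaks lie in 7 regions not called in every library, and 7 of these 8 peaks come from controls, whose lists are longer. Fold enrichment of the 8 peaks was 2.47 to 4.82, a range that overlaps the 3.09 to 11.7 of the 20 peaks. With only the best 14354 peaks by p kept in each library, the mean number of member peaks was 5.5 in exp and 6.0 in control.

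**Figure D1:**
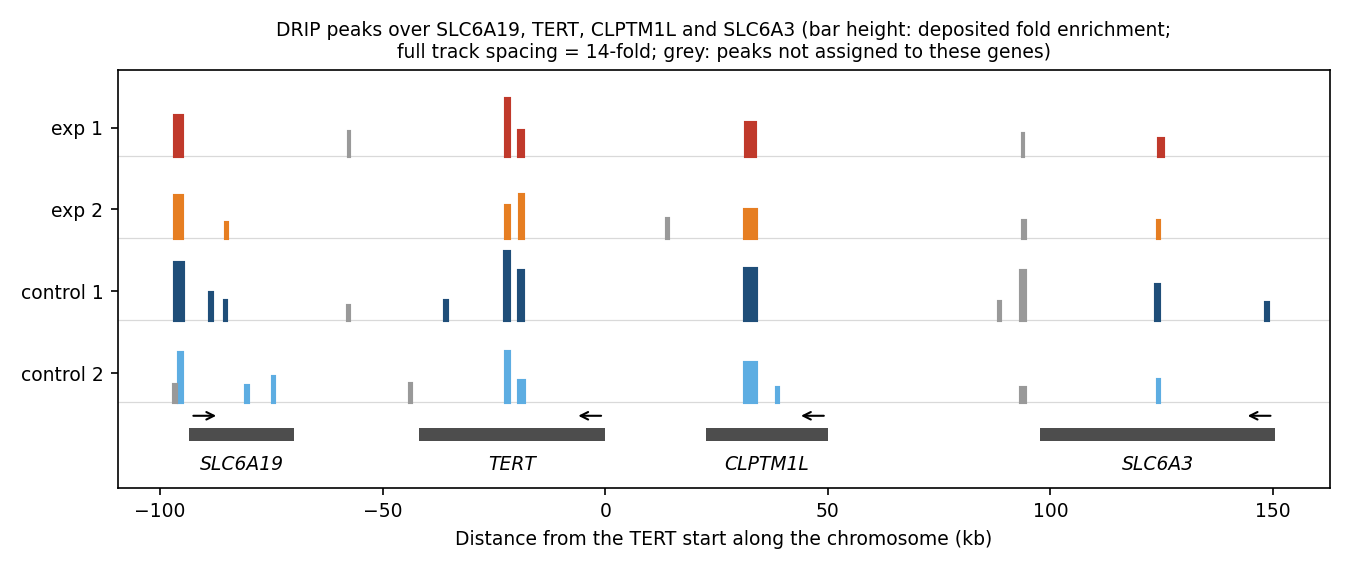
Peaks of the 4 libraries (rows) along the chromosome, by distance in kb from the TERT start. Bar height is the deposited fold enrichment, the narrowest peaks are drawn wider than scale so that they can be seen, grey bars are peaks not assigned to the 4 genes, and arrows mark the direction of transcription. Coloured bars stand at 5 positions in every row, and the remaining coloured bars are mostly in the control rows, whose lists hold more peaks.

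SLC6A19 (ENSG00000174358, plus strand, GRCh38 chr5:1201595-1225111) had its shared region before the gene, from 1.47 to 3.64 kb upstream of the RefSeq start, at chr5:1197955-1200121. The authors class its peaks as promoter, and these are the only promoter peaks of the 4 genes. The peaks carried fold enrichments of 7.05 and 7.29 in exp 1 and exp 2, against 9.92 and 8.51 in control 1 and control 2. The reads did not follow this order: per kb the groups overlapped, and the fitted log2 fold of exp over control was 0.20. How many other shared regions had a lower fold enrichment in both exp libraries was not counted. Within each list the peaks assigned to the gene here ranked among the strongest, between the top 0.305% and the top 1.25%. Control 2 had a second, weaker peak in the same region, with 47 DRIP reads and no assigned gene.

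TERT (ENSG00000164362, minus strand, chr5:1253167-1295068) had both of its shared regions in the gene body, far from the start. Region A, chr5:1272383-1273446, lies 21.6 to 22.7 kb downstream of the start and region B, chr5:1275391-1276830, lies 18.2 to 19.7 kb downstream. Fold enrichment in region A was 9.91 and 5.63 in exp 1 and exp 2, against 11.7 and 8.75 in control 1 and control 2. Region A had rank 39 in exp 1 and rank 666 in exp 2, against rank 69 in control 1 and rank 60 in control 2. In region B the order within groups differed, with 4.48 and 7.54 in exp 1 and exp 2 and 8.55 and 3.75 in control 1 and control 2. The lists class both as gene body, and exon and intron positions were not used here.

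CLPTM1L (ENSG00000049656, minus strand, chr5:1317752-1345099) held the widest of the 5 regions, chr5:1326141-1328931, 16.2 to 19.0 kb downstream of its start. The stretch common to all 4 libraries measured 2209 bp, 79.1% of the region. Fold enrichment was 5.81 and 5.05 in exp 1 and exp 2, against 8.94 and 6.83 in control 1 and control 2. SLC6A3 (ENSG00000142319, minus strand, chr5:1392794-1445440) had its shared region at chr5:1418512-1420386, 25.1 to 26.9 kb into the gene. Its fold enrichment was 3.09 and 3.09 in exp 1 and exp 2, against 6.09 and 3.83 in control 1 and control 2. The 4 SLC6A3 peaks share only 295 bp, because the exp 1 peak extends away from the others. This region is the weakest of the 5: its −log10 q was 1.5 and 1.54 in exp 1 and exp 2, against 12.4 and 3.03 in control 1 and control 2.

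No library called a peak over the start of any of the 4 genes. The nearest peak to the TERT start was 18.5 and 13.7 kb away in exp 1 and exp 2, the second being an upstream peak with no assigned gene, and 18.4 and 18.2 kb away in control 1 and control 2. At CLPTM1L the nearest was 16.4 and 16.2 kb away in exp and 16.2 and 11.3 kb away in control. At SLC6A3 a single peak of control 1, with 57 DRIP reads, came within 1.60 kb, and the other libraries had none closer than 25.1 kb. The RefSeq table (GRCh38.p14) gave windows from 250 bases before to 50 bases after the start for 3 of the genes. The windows of CLPTM1L and SLC6A19 are printed as gene starts at which no peak was called, on the coding strand, 5′ to 3′, with runs of at least 3 G or 3 C in capitals. The first is chr5:1345050-1345349 on the minus strand and the second is chr5:1201345-1201644 on the plus strand.
CLPTM1L: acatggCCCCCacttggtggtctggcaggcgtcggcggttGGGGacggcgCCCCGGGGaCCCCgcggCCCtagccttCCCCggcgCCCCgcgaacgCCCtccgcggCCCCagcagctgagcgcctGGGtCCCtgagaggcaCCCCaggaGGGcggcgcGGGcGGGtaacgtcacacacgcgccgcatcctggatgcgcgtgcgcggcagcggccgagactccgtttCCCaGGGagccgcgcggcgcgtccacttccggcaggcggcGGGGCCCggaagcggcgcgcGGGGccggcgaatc
SLC6A19: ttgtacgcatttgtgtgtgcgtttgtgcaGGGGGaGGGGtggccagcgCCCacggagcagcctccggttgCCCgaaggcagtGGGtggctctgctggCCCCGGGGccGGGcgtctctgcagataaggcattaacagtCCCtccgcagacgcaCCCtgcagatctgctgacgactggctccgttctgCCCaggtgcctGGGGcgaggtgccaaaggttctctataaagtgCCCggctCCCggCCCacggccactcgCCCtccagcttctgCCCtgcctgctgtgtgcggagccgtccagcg

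Runs of GGG or CCC were counted in these windows without overlap, on the coding strand, where CCC marks GGG on the other strand. CLPTM1L held 9 G runs and 12 C runs with 78.0% GC, and SLC6A19 held 6 G runs and 11 C runs with 66.7% GC. The medians over all promoter windows were 6 G runs, 6 C runs and 58.7% GC, so the G runs of SLC6A19 were at the median. The TERT window held 9 G runs and 21 C runs with 77.3% GC, and only 0.763% of the 35116 promoter windows in the table held as many C runs. Its GC skew, the excess of G over C divided by their sum, was -0.233 on the coding strand, against 0.00855 in CLPTM1L and 0.0100 in SLC6A19. A series of 4 C runs separated by 1 to 7 bases occurred in the TERT and CLPTM1L windows and in 13.1% of all windows. A series of 4 G runs so spaced occurred in none of the 3 windows and in 14.4% of all.

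The 20 peaks assigned to the 4 genes in the shared regions had a negative deposited GC skew, between -0.800 and -0.360, and the unassigned control 2 peak upstream of SLC6A19 had -0.320. The skew was read as that of the reference strand: of 43 pairs of overlapping peaks with an absolute skew of at least 0.2, 1 assigned to a minus-strand gene and 1 to no gene, 41 had the same sign. The coding strand of TERT, CLPTM1L and SLC6A3 is therefore the G-rich one in these regions, while the region upstream of SLC6A19, a plus-strand gene, is C-rich on the coding strand. Weighted by width over the 4 libraries, the skew was -0.592 and -0.612 in TERT regions A and B, -0.60 in CLPTM1L, -0.616 in SLC6A3 and -0.517 upstream of SLC6A19. Among all 1859 regions called in every library the median was 0.0651, with 17.0% at -0.5 or below and 17.3% at 0.5 or above. By absolute skew the 5 member regions stood between the 66.4th and 73.3rd percentile of these regions, so skew of this size was common among them. The exp 1 peak of SLC6A3, which runs beyond the others, had a skew of -0.360, against -0.800 in exp 2, -0.775 in control 1 and -0.752 in control 2.

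**Figure D2:**
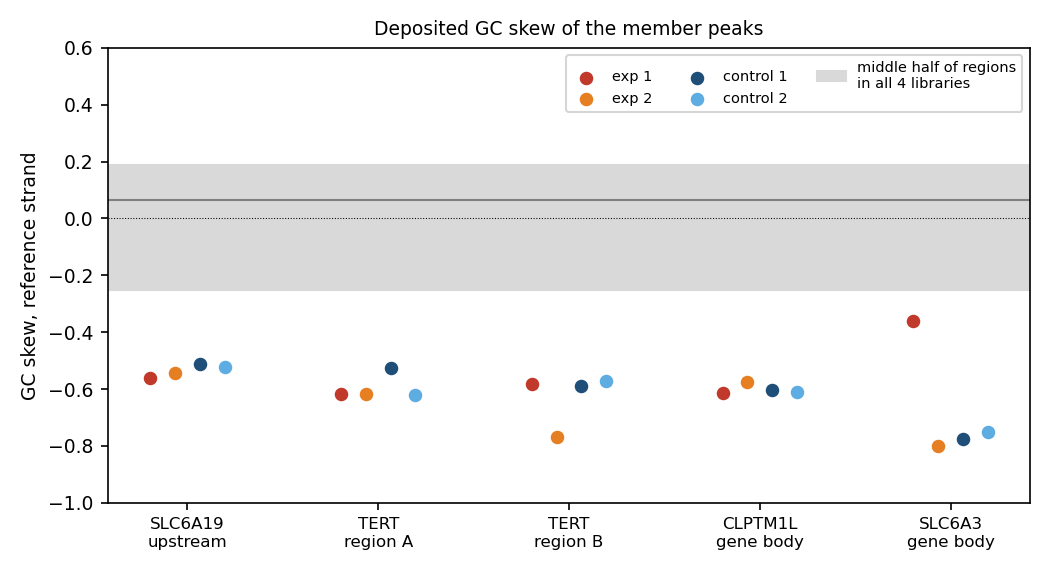
Deposited GC skew of each library's peak assigned to the 4 genes (points) in the 5 shared regions, on the reference strand; the grey band is the interquartile range of all regions called in every library (-0.251 to 0.187) and the grey line their median. All points lie below the band.

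The reads at the 5 regions were compared between exp and control. Upstream of SLC6A19 the peaks held 274 and 252 DRIP reads in exp 1 and exp 2, against 340 and 198 in control 1 and control 2. TERT region A held 113 and 86 DRIP reads in exp 1 and exp 2, against 190 and 107 in the controls. TERT region B held 113 and 84 in exp 1 and exp 2, against 146 and 140 in the controls. Per kb of peak, which takes account of the width each library called, the exp and control libraries overlapped in all 3 of these regions. Upstream of SLC6A19, for example, there were 160 and 142 reads per kb in exp 1 and exp 2 and 182 and 117 in control 1 and control 2.

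CLPTM1L held 161 and 163 DRIP reads in exp 1 and exp 2, against 379 and 251 in control 1 and control 2. Per kb this was 72.9 and 59.7 reads in exp and 141 and 96.4 in control. SLC6A3 held 68 and 24 DRIP reads in exp 1 and exp 2, against 158 and 37 in control 1 and control 2, or 55.6 and 50.2 reads per kb in exp and 158 and 74.0 in control. In both genes each exp library lay below each control per kb. This held in 2 of the 5 member regions and in 23.9% of all regions called in every library.

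**Figure D3:**
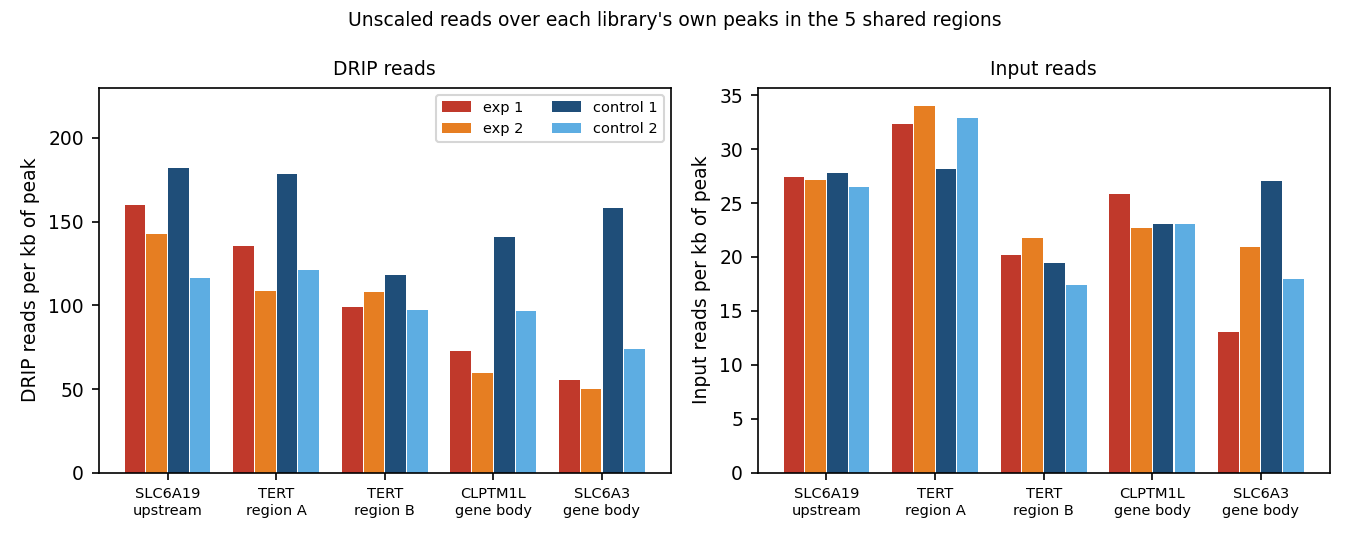
DRIP reads (left) and input reads (right) per kb of peak in the 5 shared regions, 1 bar per library, without scaling for depth. In the DRIP panel the 2 exp bars are below both control bars in CLPTM1L and SLC6A3, while in the other regions the groups overlap. In the input panel the groups overlap in all regions but TERT region B, where the exp bars (20.2 and 21.8) are above the control bars (19.4 and 17.4).

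The input reads come from 1 library shared by all lists and were counted over each list's own peaks. In CLPTM1L they numbered 57 and 62 over the peaks of exp 1 and exp 2 and 62 and 60 over those of control 1 and control 2. DRIP reads per input read there were 2.82 and 2.63 in exp and 6.11 and 4.18 in control. In TERT region B the ratio was 4.91 and 4.94 in exp, against 6.08 and 5.60 in control. These 2 regions had a lower ratio in both exp libraries than in both controls, as had 25.3% of the regions with input reads in every list. SLC6A3 overlapped by this measure, with 4.25 and 2.40 in exp and 5.85 and 4.11 in control, and its peaks held 9 to 27 input reads. Input density over the 4 called intervals together was 31.6 reads per kb in TERT region A, 27.2 upstream of SLC6A19, 23.5 in CLPTM1L and 19.4 in both TERT region B and SLC6A3, with a median of 20.0 over all regions called in every library. The reads come from bulk material, in which fewer cells carrying a structure and less of it per cell cannot be told apart.

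The difference was tested with edgeR's quasi-likelihood test over the 1859 regions called in every library, with peak width as an offset, so that differences are relative to these regions. CLPTM1L had 188 and 171 normalised reads in exp 1 and exp 2, against 299 and 269 in control 1 and control 2. Its log2 fold was -0.67 ± 0.18 (SE), or 0.630 times the control level (95% interval 0.484 to 0.820). SLC6A3 had 41.2 and 41.4 normalised reads in exp, against 96.7 and 59.5 in control, a log2 fold of -0.98 ± 0.27 (SE) or 0.508 times the control level (0.342 to 0.756). These were the 4th and 7th smallest unadjusted p-values of the 1859 regions, 0.00195 and 0.00239. The adjusted p from edgeR, by Benjamini-Hochberg over all regions, was 0.575 for both, so neither passed the threshold of 0.05. The SLC6A3 intervals of the 4 libraries share only 295 bp, 15.7% of the region, so its fold compares partly different DNA. Without control 1 the SLC6A3 log2 fold was -0.52 and its unadjusted p in edgeR 0.113; with input reads in place of width as the offset it was -0.39, and with no width offset -0.62.

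The remaining regions had smaller estimates. The log2 fold was 0.20 ± 0.18 (SE) upstream of SLC6A19, a ratio of 1.15 (95% interval 0.885 to 1.49). TERT region A gave -0.13 ± 0.21 (SE), a ratio of 0.917 (0.676 to 1.24), and region B gave 0.10 ± 0.21 (SE), a ratio of 1.07 (0.786 to 1.46). The adjusted p from edgeR lay between 0.942 and 0.980 for these 3 regions. Each interval includes both lower and higher signal in exp. The sign of region B turned without the width offset, with input reads as the offset and without exp 2. In the whole fit edgeR called 0 of the 1859 regions (0%) in either direction and DESeq2 called 0 as well, with 22 lower and 10 higher at an unadjusted p under 0.05. With an unadjusted p under 0.05 in edgeR there were 75 regions lower in exp (4.03%), CLPTM1L and SLC6A3 among them, and 48 higher in exp (2.58%). A negative log2 fold was found in 3 of the 5 member regions and in 49.2% of all regions. The median log2 fold was -0.13 over the 5 member regions and 0.0063 over all regions.

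**Figure D4:**
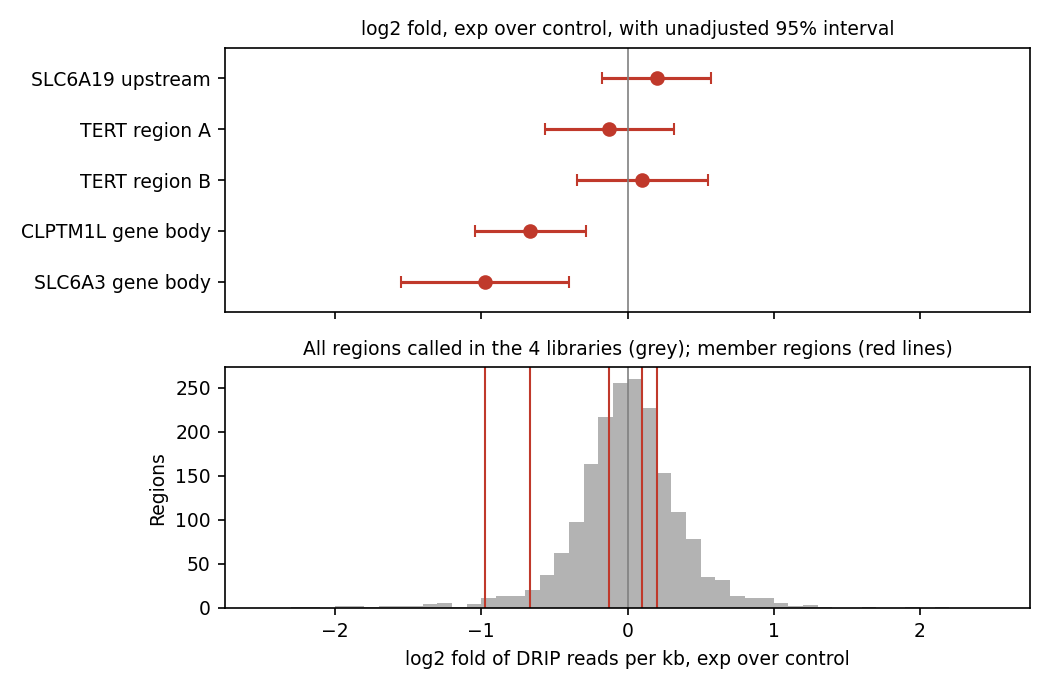
Top, log2 fold of width-scaled DRIP reads, exp over control, in the 5 shared regions with unadjusted 95% intervals. Bottom, the distribution of the same value over all 1859 regions, with the member regions as red lines; CLPTM1L (-0.67) and SLC6A3 (-0.98) lie in its lower tail, and no region passed the adjusted threshold.

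Of the 7 regions not called in every library, 6 were called in 1 library. SLC6A19 had 1 region within the gene called in exp 2 (29 DRIP reads) and control 1 (36 DRIP reads), at chr5:1209528-1210099. A further 3 SLC6A19 regions were called in 1 control each, with 80, 33 and 32 DRIP reads. TERT had 1 such peak in control 1, with 44 DRIP reads, 35.6 kb downstream of the start and with a skew of opposite sign, 0.399. CLPTM1L had 1 in control 2, with 59 DRIP and 50 input reads and a fold enrichment of 2.47, and SLC6A3 had the control 1 peak near its start. Of all merged regions 77.6% were called in a single library. The weakest member peak had a −log10 p of 3.18, in SLC6A19 of control 2, and the lists begin at 3.00.

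Between the genes, 1 region with no assigned gene was also called in every library. It lies at chr5:1388221-1389384, downstream of the end of SLC6A3, and held 52 and 53 DRIP reads in exp 1 and exp 2, against 159 and 100 in control 1 and control 2. The called widths differed, with 374 and 588 bp in exp and 1070 and 1058 bp in control, and per kb the groups overlapped, with 139 and 90.1 reads in exp and 149 and 94.5 in control. Its skew was negative in all 4 libraries too, -0.909 and -0.730 in exp and -0.743 and -0.684 in control. SLC6A18, a transporter gene between SLC6A19 and TERT, held 1 region, called in exp 1 with 38 DRIP reads and in control 1 with 37. From the first SLC6A19 region to the SLC6A3 start, 247 kb, peaks of any assignment covered 3.18% in each exp library, against 4.77% and 4.09% in control 1 and control 2. The ratio of the exp mean to the control mean was 0.718, and that for the number of all peaks was 0.633. Coverage over the whole lists was not computed. The 247 kb stretch held 6 regions called in every library. With each chromosome tiled into windows of the same length, 0.536% of the 9322 windows with a peak held at least 6, a description only, since the stretch was drawn around called regions.

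Of 23 other genes of 5p15.33 and its border, 7 and 11 held a peak in exp 1 and exp 2, against 16 and 9 in control 1 and control 2, so the groups overlapped. SLC12A7, CEP72, AHRR and NKD2 held peaks in all 4 libraries, and each has a region called in all 4. CEP72, a centrosomal protein gene, had best fold enrichments of 8.25 and 6.95 in exp and 9.21 and 8.09 in control. NKD2, an antagonist of Wnt signalling, had 5.62 and 4.45 in exp and 7.70 and 6.84 in control. AHRR had 4.79 and 3.25 in exp and 6.11 and 5.79 in control. SLC12A7 had 6.87 and 3.59 in exp and 11.0 and 4.96 in control, so its groups overlapped, as did those of CEP72. How many other genes had a lower best fold enrichment in both exp libraries was not counted. TRIP13, a checkpoint ATPase, was the 1 gene of the list with peaks in both controls only, a class that 8.52% of genes with a peak belonged to.

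Among 17 other SLC6 transporters, 5 and 2 held a peak in exp 1 and exp 2, against 10 and 7 in control 1 and control 2. SLC6A6, the taurine transporter, was the 1 with peaks in all 4 libraries, none of them in a region shared by all. SLC6A7 and SLC6A13 held peaks in both controls only. Of 22 telomerase and telomere factors, 4 and 4 held a peak in exp and 7 and 7 in control. SMG6 and RTEL1, a helicase that unwinds telomeric structures, held peaks in all 4, none of them in a region shared by all. TEP1 and CTC1 held peaks in both controls only. Of 25 genes at other lung cancer susceptibility loci, 2 and 3 held a peak in exp and 8 and 10 in control. RTEL1 and FAM13A were in all 4, FAM13A but not RTEL1 with a region shared by all, and IREB2, ROS1, TP63 and DCBLD1 in both controls only. The lists also count genes without any peak. A peak in any library was held by 17 of 23 genes of 5p15.33 and 14 of 17 SLC6 transporters. For the telomere factors this was 10 of 22, and for the susceptibility loci 13 of 25. Of the 12325 genes with any peak, 5054 and 4032 held one in exp 1 and exp 2, against 7046 and 7006 in control 1 and control 2. None of the 4 lists had a member in both exp libraries only, a class of 1.37% of genes with a peak, against 8.52% in both controls only.

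Likeness of pattern was measured as the Euclidean distance in log2 DRIP reads per kb over the 4 libraries, among 443 regions called in every library that carry a protein-coding gene. The closest to CLPTM1L were RPH3AL (distance 0.123), GOLGA6L22 (0.192) and AHRR (0.240). RPH3AL held 75.5 and 64.5 reads per kb in exp and 142 and 96.9 in control. The closest to SLC6A3 were CYP4F11 (0.451), B4GALNT3 (0.553) and CLPTM1L (0.624), so that no region matched SLC6A3 as closely as RPH3AL matched CLPTM1L. Among the genes nearest to TERT region A were FAM135B (0.183) and CRYAA2 (0.245), and among those nearest to region B were LIPH (0.136) and RCOR1 (0.19). The region upstream of SLC6A19 was nearest to AREL1 (0.217), NAV2 (0.224) and CDC42EP5 (0.302). GOLGA6L22 and CRYAA2 have close copies elsewhere in the genome, so their counts are uncertain. The sequences of the member regions were not available here. Repeats in the member regions were therefore not checked, and whether they affect the counts or the skew there was not tested.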

How the data were processed

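DRIP-seq peaks of PC-9 cells were used, 1 deposited list per library (2 exp, 2 control), not pooled. Per the submitters' processing notes, the tools included Bowtie2, MACS2, cutadapt, FastQC and DiffBind, with GRCh38 (hg38) as build; no version or setting is given in the sources used here. Per the file headers, the counts are reads of the DRIP and input libraries over each peak, and the fold enrichment is a ratio over a local background. The −log10 p and q values deposited by the authors are described with a further multiplier, but start at 3.00 and were read as plain −log10. The GC skew score was deposited by the authors per peak.

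Peaks sharing at least 1 bp were merged, and members were taken by gene name. DRIP counts of regions called in all 4 libraries, summed per library, were tested with edgeR 4.0.16 (R 4.3.3), with peak width as offset and TMM normalization of the counts per width, adjusted over all regions. The procedure was tested on simulated counts with changes larger than the member estimates, so changes of the size estimated here were not covered. Alternatives were DESeq2 1.42.0, filters, offsets, the replicate block and left-out libraries. Each library's reads thus come from intervals called in that library alone. The synthetic spike-ins of the labels' protocol were not used here. Named genes were the 4 members, up to 4 genes per class of each list, and the 3 nearest genes by likeness, of which some are not reported here; SLC6A18 was named for its position, after its values were seen. The members and lists were chosen with earlier results of these data known.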

Additional observations from a re-analysis of the deposited data

How the results depend on the processing

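Neither CLPTM1L nor SLC6A3 passed the adjusted threshold under any of 11 alternatives each, and both kept a negative log2 fold in all of them. Without the width offset, however, the log2 fold was -0.62 for SLC6A3 (95% interval -2.28 to 1.03) and -0.59 for CLPTM1L (-1.22 to 0.036), and both intervals then included 0; the unadjusted p in edgeR was 0.396 and 0.0607. The lowest adjusted p was 0.163 for CLPTM1L and 0.105 for SLC6A3, both with only the regions of exactly 1 peak per library, and the highest was 0.999 for both, with DESeq2. Leaving out 1 library moved the log2 fold from -0.74 to -0.58 for CLPTM1L and from -1.23 to -0.52 for SLC6A3, the weakest value being without control 1. For TERT region B the sign turned to -0.23 without the width offset and to -0.084 with input reads as offset, a setting chosen after seeing the data, and the range with 1 library left out was -0.036 (without exp 2) to 0.249. The region upstream of SLC6A19 could not be fitted among regions of exactly 1 peak, since control 2 has 2 there. Regions called in the whole fit numbered 0 to 6 higher and 0 to 8 lower in exp when 1 library was left out, where a lone library is assumed to vary like the other group; without exp 1 there were 6 and 2, and without exp 2 there were 1 and 8. With the replicate number as a block the log2 fold was -0.66 for CLPTM1L and -0.97 for SLC6A3, and 0 regions were called in either direction. The labels do not state that equal numbers pair the libraries, and the deviations of equal numbers correlated at -0.071 over 1859 regions.

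Restricted to −log10 q values of 5 or more, the lists gave different counts: exp held 4 member peaks on average and the controls 4.5, and 3 regions remained in every library. SLC6A3 had no exp peak at −log10 q of at least 2. By overlap with the RefSeq gene spans 3 of the 4 genes held a peak in every library, since the SLC6A19 region lies before the gene. With runs of at least 4 bases in place of 3, the share of promoters with at least as many C runs moved for all 3 genes. It was 2.25% for TERT, against 0.763% with runs of at least 3. For CLPTM1L it was 5.75% against 12.5%. For SLC6A19, which has 1 run of at least 4, it was 73.6% against 16.4%.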
